A study of Oryza sativa with 45 samples.

Results

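Auxin moves between plant cells through carriers, is perceived in the nucleus by F-box receptors and is taken out of the active pool by conjugation to amino acids. In rice, as in other plants, influx carriers of the AUX1 family bring the hormone into cells and PIN proteins carry it out. The receptors TIR1 and AFB2 bind auxin together with Aux/IAA repressors and send these to degradation, which frees the auxin response factors (ARF), and the GH3 enzymes that conjugate auxin are themselves induced by it.
The set described here held 8 genes, taken by their identifiers from the 35677 genes of a count table. They were AUX1 (OS01G0856500), TIR1 (OS05G0150500), AFB2 (OS04G0395600), YUCCA1 (OS01G0645400), PIN1b (OS02G0743400), PIN2 (OS06G0660200), GH3-8 (OS07G0592600) and GH3-2 (OS01G0764800). A filter on low counts kept 26180 genes for testing, 7 of the 8 among them, and PIN2 did not pass it.

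Poly(A)+ RNA was sequenced from rice seedlings of 4 near-isogenic indica genotypes that were sown and kept underwater in a nethouse. The genotypes were IR64(AG1,SUB1), which carries both flooding loci, IR64(AG1), which carries AG1 with the trehalose-6-phosphate phosphatase gene TPP7, IR64(SUB1), which carries SUB1 with the ethylene-responsive factor gene SUB1A-1, and IR64, which carries neither introgression. AG1 came from the landrace Khao Hlan On and SUB1 from FR13A, while IR64 and IR64(AG1) keep the allele SUB1A-2. Each genotype was sampled 2, 4, 8 and 14 d after sowing, every sample was a pool of seedlings, and no sample grown in air was sequenced. The labels give the tissue as embryo at 2 d and coleoptile from 4 d on, and the methods of the study describe the harvest as embryo, coleoptile and shoot together. Of the 16 groups of genotype and day, 13 had 3 libraries and 3 had only 2, namely IR64(AG1,SUB1) on both of the first days and IR64(SUB1) at 8 d, which gave 45 libraries. Each line is 1 introgression line, so a difference between lines can come from any segment in which they differ.

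Libraries held 12256409 to 24870831 counts in total (median 20459708). The table had a single entry for SUB1A, which fitted the labels, with 41.2 to 74.9 CPM (counts scaled to a common library size, by TMM) at 8 d in the lines with SUB1, against 0.219 to 2.08 CPM in the lines without it. At 14 d, it had 101 to 166 CPM in the lines with SUB1, against 9.46 to 24.95 CPM in the others. Green leaf and root RNA appeared between 4 and 8 d in the material labelled coleoptile. The leaf marker CAB had a median of 3.69, 2.14, 954 and 1171 CPM at 2, 4, 8 and 14 d. The root markers LSI1 and LSI2 had no count in any library at 2 and 4 d, and the summed level of the 3 root markers RCc3, LSI1 and LSI2 was at most 4.53 CPM on those days, against 175 to 316 CPM at 8 d and 61.6 to 115 CPM at 14 d. From 8 to 14 d, the median of RCc3 fell from 206 to 36.0 CPM. Those of LSI1 and LSI2 rose from 14.9 to 47.6 CPM and from 0.986 to 2.31 CPM, so the sum hides opposite changes. The leaf and root markers moved with day in all genotypes, and their part in the changes between 4 and 8 d was not tested. The planned list of markers was longer, and its other genes, embryo and seed genes among them, are not given here. The level of a gene in bulk tissue depends on the share of cells that express it and on the RNA per cell, which cannot be told apart here.

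The 5 genes with high counts followed the age of the seedlings far more than their genotype. TIR1, AFB2, GH3-8 and GH3-2 were lower at 14 d than at 2 d in every library, and AUX1 was higher. Of the variance of log2 CPM over the 45 libraries, the day took 97.7% for TIR1, 94.0% for GH3-8, 92.7% for AFB2, 90.3% for GH3-2 and 88.9% for AUX1, against a median of 75.7% over all genes tested. The genotype within a day took 0.780% for TIR1 and 7.79% for AUX1, the lowest and the highest of these 5, and the median over all genes was 8.95%. YUCCA1 and PIN1b, which had few counts, lay lower with 47.4 and 12.1% for the day.
A gene was called at a false discovery rate (FDR, Benjamini-Hochberg over all genes tested) under 0.05 in the quasi-likelihood test of edgeR, if its log2 fold change also exceeded 1 in size. As the mean of the 4 genotypes, 1 of the 7 tested genes was called at 4 d against 2 d (14.1% of all genes tested were called), 4 were called at 8 d against 4 d (37.7% of all genes) and 3 at 14 d against 8 d (27% of all genes). With so few genes, these shares were read only beside the values of each gene.

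**Figure D1:**
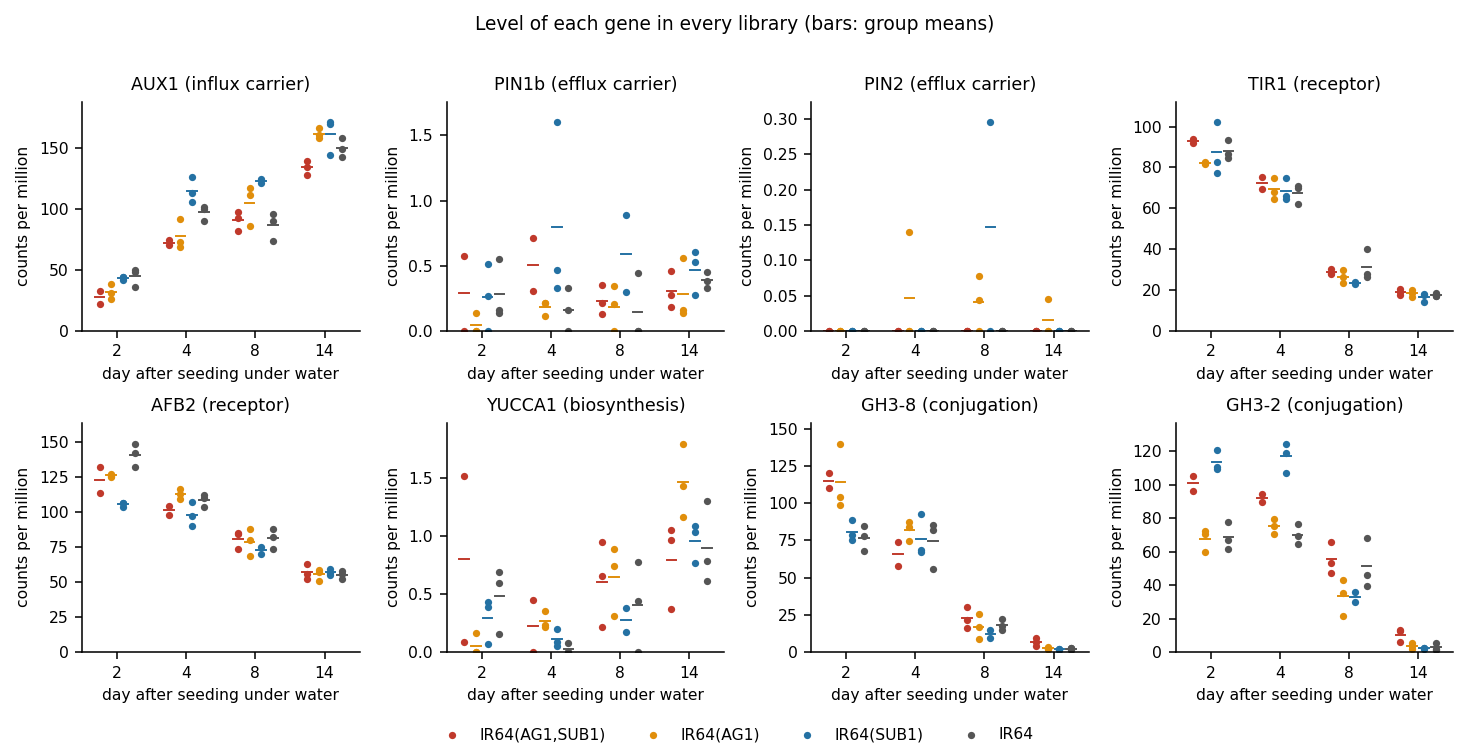
Level of each of the 8 genes (CPM, linear axes that start at 0 and differ between panels) by day after sowing underwater, with 1 point per library, colours for the genotypes and short bars for the group means. AUX1 climbed to 128 to 171 CPM at 14 d, TIR1, AFB2, GH3-8 and GH3-2 declined, and PIN1b, PIN2 and YUCCA1 stayed under 2 CPM in all libraries.

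AUX1, the influx carrier, was the single gene, of the 5 with high counts, that increased with age. At 2 d, it had 21.7 and 33.2 CPM in IR64(AG1,SUB1), 31.2, 38.7 and 26.6 CPM in IR64(AG1), 44.2, 41.5 and 44.2 CPM in IR64(SUB1), and 50.3, 48.8 and 35.8 CPM in IR64. At 4 d, it had 70.3 and 74.7 CPM in IR64(AG1,SUB1), 72.8, 69.1 and 92.3 CPM in IR64(AG1), 106, 126 and 113 CPM in IR64(SUB1), and 90.3, 100.3 and 101 CPM in IR64. Every library at 4 d was thus above every library at 2 d. As the mean of the genotypes, AUX1 rose at 4 d against 2 d by a log2 fold change of 1.30 (standard error 0.07, 95% interval 1.15 to 1.45, FDR 3.1e-17, edgeR quasi-likelihood test). The gene was called higher in each of the 4 genotypes, with log2 fold changes of 1.11 to 1.41. Calls higher made up 7.93% of all genes tested in IR64(AG1,SUB1), 5.17% in IR64(AG1), 7.87% in IR64(SUB1) and, for IR64, 6.21%. In IR64, the AUX1 log2 fold change was 0.97 without replicate 3 of 2 d, just under the threshold.
The level then hardly moved until 8 d. At 8 d, AUX1 had 81.7, 98.0 and 92.7 CPM in IR64(AG1,SUB1), 86.3, 112 and 117 CPM in IR64(AG1), 125 and 121 CPM in IR64(SUB1), and 73.6, 96.3 and 89.9 CPM in IR64. These overlapped the libraries of 4 d in 3 of the 4 genotypes, and the mean log2 fold change was 0.17 (95% interval 0.03 to 0.32, FDR 0.030, edgeR quasi-likelihood test). At 14 d, the gene had 139.7, 135 and 128 CPM in IR64(AG1,SUB1), 158, 167 and 161 CPM in IR64(AG1), 170.0, 171 and 144 CPM in IR64(SUB1), and 149, 159 and 143 CPM in IR64. All libraries of 14 d were above those of 8 d, with a mean log2 fold change of 0.60 (standard error 0.07, FDR 1.2e-09, edgeR quasi-likelihood test), which is under the threshold for a call.

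PIN1b and PIN2, the efflux carriers of the set, were close to the limit of detection. PIN1b had 0 to 26 counts per library, equal to 0 to 1.60 CPM, with no count in 8 libraries and 3 or fewer in 16. Its libraries overlapped between successive days in every genotype, and as the mean of the genotypes its FDR at the 3 steps was 0.28, 0.58 and 0.42 (edgeR quasi-likelihood test), so no change was detectable at this depth. Without IR64 replicate 2 of 8 d, which leaves that group with no count, PIN1b was called lower at 8 d (FDR 0.046) and higher at 14 d (FDR 0.026). PIN2, which acts in roots in Arabidopsis, had 13 counts in all 45 libraries together. It had 2 counts in 1 library of IR64(AG1) at 4 d, 1 and 2 counts in 2 libraries of IR64(AG1) and 7 counts in 1 library of IR64(SUB1) at 8 d, and 1 count in 1 library of IR64(AG1) at 14 d. The other 40 libraries had none, and a count of 0 allows a level of up to 0.103 to 0.267 CPM (3 counts of the library total, counting error only). PIN2 remained near 0 at 8 and 14 d, the days on which the root markers were present.

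YUCCA1 encodes a flavin monooxygenase of the last step of auxin biosynthesis and also had few counts. In IR64(AG1,SUB1), it had 1 and 21 counts at 2 d, 5 and 0 at 4 d, 13, 5 and 22 at 8 d, and 8, 21 and 27 at 14 d. In IR64(AG1), it had 3, 0 and 0 counts at 2 d, 4, 5 and 4 at 4 d, 7, 18 and 23 at 8 d, and 36, 29 and 40 at 14 d. In IR64(SUB1), there were 8, 5 and 1 counts at 2 d, 1, 1 and 3 at 4 d, 4 and 11 at 8 d, and 27, 19 and 30 at 14 d.
In IR64, YUCCA1 had 11, 2 and 10 counts at 2 d, 0, 1 and 0 at 4 d, 0, 10 and 19 at 8 d, and 19, 16 and 36 at 14 d. The 11 libraries of 4 d had 0 to 5 counts and the 12 of 14 d had 8 to 40, equal to 0.373 to 1.799 CPM. The mean level was lowest at 4 d in IR64(AG1,SUB1), IR64(SUB1) and IR64, while in IR64(AG1) it was lowest at 2 d, with 0.265 CPM at 4 d and 0.054 CPM at 2 d. YUCCA1 was called higher as the mean of the genotypes at 8 d against 4 d (FDR 0.0022) and at 14 d against 8 d (log2 fold change 1.11, standard error 0.42, FDR 0.020, edgeR quasi-likelihood test), where 27.2 and 16.2% of all genes tested were called higher. At 4 d against 2 d, the FDR of the mean of the genotypes was 0.078 with edgeR, and YUCCA1 was called lower with DESeq2 (FDR 0.037) and with edgeR without replicate 1 of 4 d or replicate 2 of 2 d of IR64(AG1,SUB1) or replicate 2 of 4 d of IR64 (FDR 0.011, 0.037 and 0.045). Fitted folds to or from 4 d are not quoted, since most libraries of that day were at or near the floor of 3 counts. The call at 14 d was lost without IR64 replicate 1 of 8 d (0.95, FDR 0.034) and without IR64(SUB1) replicate 2 of 8 d (1.01, FDR 0.060). With 5 counts added to every gene and the likelihood ratio test, the steps that the study describes, neither change reached the threshold for a call, and that at 14 d against 8 d was 0.81. In IR64 alone, YUCCA1 was called lower at 4 d (3.87% of all genes) and higher at 8 d (22.6% of all genes), and both calls were lost in a fit of only the groups compared (FDR 0.070 and 0.098) and with the steps of the study (FDR 0.12 and 0.14). They also went without IR64 replicate 1 or 3 of 4 d, the first without replicate 1 or 3 of 2 d and the second without replicate 3 of 8 d (FDR 0.057 to 0.11).

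The receptors TIR1 and AFB2 both declined as the seedlings aged, TIR1 by far the more. TIR1 had 77.2 to 102 CPM at 2 d (median 84.4), 62.2 to 75.4 CPM at 4 d (median 69.5), 23.1 to 39.9 CPM at 8 d (median 27.6) and 14.1 to 20.6 CPM at 14 d (median 17.9). The libraries of successive days did not overlap at any step, with the genotypes pooled. At 8 d, it had 27.6, 30.1 and 28.3 CPM in IR64(AG1,SUB1), 29.8, 23.6 and 26.4 CPM in IR64(AG1), 23.8 and 23.1 CPM in IR64(SUB1), and 39.9, 26.2 and 27.7 CPM in IR64. At 4 d, TIR1 had 69.5 and 75.4 CPM in IR64(AG1,SUB1), 74.8, 68.2 and 64.76 CPM in IR64(AG1), 66.0, 64.79 and 74.7 CPM in IR64(SUB1), and 62.2, 69.7 and 70.9 CPM in IR64.
The drop between these days was the one that passed the test in full. TIR1 fell at 8 d against 4 d by 1.34 on the log2 scale as the mean of the genotypes (standard error 0.06, 95% interval -1.47 to -1.21, FDR 6.5e-21, edgeR quasi-likelihood test). It was called lower in each of the 4 genotypes, with log2 fold changes of -1.55 to -1.11. Of all genes tested, 8.1% were called lower in IR64(AG1,SUB1), 10.7% in IR64(AG1), 11.1% in IR64(SUB1) and, for IR64, 7.8%. In IR64, the change was -0.9987 and under the threshold without replicate 2 of 8 d, and -0.88 with the steps of the study. The changes at the other steps, -0.33 at 4 d against 2 d and -0.62 at 14 d against 8 d, had FDR of 2.0e-05 and 3.7e-11 (edgeR quasi-likelihood test) but were smaller than the threshold.

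AFB2 had 104 to 149 CPM at 2 d, 90.2 to 116 CPM at 4 d, 68.6 to 88.2 CPM at 8 d and 50.8 to 62.9 CPM at 14 d. Its libraries overlapped between 2 and 4 d and were apart at the later steps. The log2 fold changes as the mean of the genotypes were -0.23, -0.42 and -0.48 at the 3 steps, with standard errors of 0.05 each and FDR of 7.1e-05, 2.9e-10 and 7.4e-12 (edgeR quasi-likelihood test). None reached the threshold for a call.
The ratio of the 2 receptors within a library shows the difference between them without any scaling of libraries. The log2 ratio of TIR1 to AFB2 counts had a median of -0.61 at 2 d (-0.82 to -0.06), -0.59 at 4 d (-0.85 to -0.27), -1.59 at 8 d (-1.90 to -1.04) and -1.64 at 14 d (-2.08 to -1.47). The libraries of 2 and 4 d overlapped each other, and so did those of 8 and 14 d, while none of 8 or 14 d reached the range of 2 and 4 d. The ratio therefore moved between 4 and 8 d by close to 1 on the log2 scale. The counts are not divided by gene length, so the ratio gives no order of the receptors on 1 day.

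**Figure D2:**
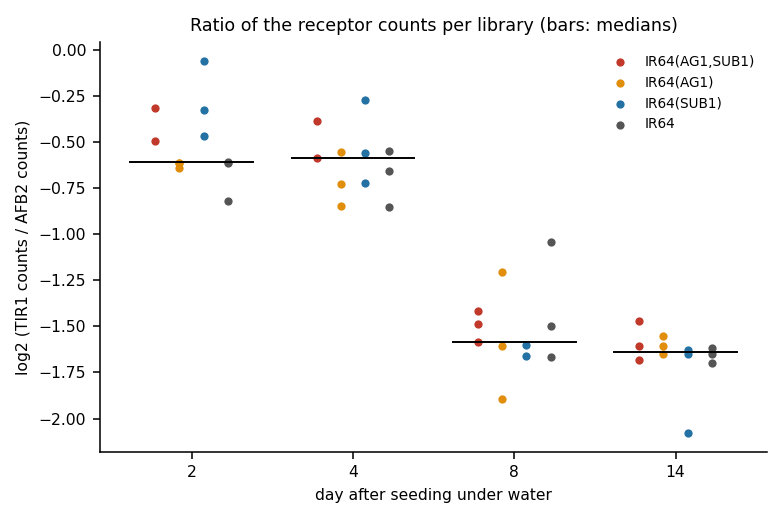
Log2 ratio of TIR1 to AFB2 counts within each of the 45 libraries by day after sowing underwater, with colours for the genotypes and bars for the median of each day. The medians were -0.61, -0.59, -1.59 and -1.64 at 2, 4, 8 and 14 d, and all genotypes moved between 4 and 8 d.

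The conjugation genes GH3-8 and GH3-2, whose enzymes join auxin to amino acids, lost most of their transcripts by 14 d. GH3-8 had 68.1 to 140.2 CPM at 2 d (median 88.5), 55.8 to 92.6 CPM at 4 d (median 74.6), 8.85 to 30.02 CPM at 8 d (median 16.6) and 1.41 to 9.42 CPM at 14 d (median 2.36). Its libraries of 8 d were all below those of 4 d, and in each genotype those of 14 d were below those of 8 d. GH3-8 fell by 2.13 on the log2 scale at 8 d against 4 d (standard error 0.14, FDR 1.1e-16) and by 2.58 at 14 d against 8 d (standard error 0.15, FDR 1.8e-17, edgeR quasi-likelihood test), as the mean of the genotypes. It was called lower in all 4 genotypes at both steps, with log2 fold changes of -2.66 to -1.54 and of -3.05 to -1.74. At the second of these steps, 7.65% of all genes tested were called lower in IR64(AG1,SUB1), 8.98% in IR64(AG1), 8.03% in IR64(SUB1) and, for IR64, 10.9%. At 4 d against 2 d, the change was -0.35 (FDR 0.022, edgeR quasi-likelihood test), under the threshold.
GH3-2 stayed high for longer. It had 59.9 to 120.5 CPM at 2 d (median 77.5), 64.6 to 125 CPM at 4 d (median 79.8), 21.3 to 68.4 CPM at 8 d (median 43.2) and 1.18 to 13.0 CPM at 14 d (median 2.97). At 4 d against 2 d, its mean log2 fold change was 0.02 (95% interval -0.25 to 0.30, FDR 0.98, edgeR quasi-likelihood test), so the levels of these days were not distinguishable.
At 8 d, the gene had 53.1, 65.7 and 47.1 CPM in IR64(AG1,SUB1), 43.2, 35.1 and 21.3 CPM in IR64(AG1), 36.0 and 29.98 CPM in IR64(SUB1), and 68.4, 45.8 and 39.4 CPM in IR64. At 4 d, GH3-2 had 94.5 and 89.7 CPM in IR64(AG1,SUB1), 70.3, 75.0 and 79.8 CPM in IR64(AG1), 107, 119 and 125 CPM in IR64(SUB1), and 64.6, 76.6 and 69.1 CPM in IR64. The groups of 8 and 4 d overlapped in IR64 only. GH3-2 fell by 1.05 at 8 d against 4 d as the mean of the genotypes (standard error 0.14, 95% interval -1.33 to -0.77, FDR 1.3e-08, edgeR quasi-likelihood test), close to the threshold. Without IR64(AG1) replicate 3 of 8 d, the change was -0.99, with DESeq2 it was -0.96 and with the steps of the study -0.87. Taken singly, IR64(SUB1) and IR64(AG1) were called lower, with log2 fold changes of -1.83 and -1.18, the second of which was -0.94 without that same library. The changes of -0.73 in IR64(AG1,SUB1) and -0.45 in IR64 were not called. At 14 d against 8 d, GH3-2 fell by 3.43 (standard error 0.16, 95% interval -3.75 to -3.12, FDR 4.8e-21, edgeR quasi-likelihood test), and each of the 4 genotypes was called lower, at log2 fold changes of -4.18 to -2.41. The change in IR64, the most negative of these, was -5.02 without IR64 replicate 3 of 14 d.
The 2 conjugation genes were thus out of step at 8 d. The log2 ratio of GH3-2 to GH3-8 counts within a library had a median of -0.23 at 2 d (-0.96 to 0.56), 0.21 at 4 d (-0.31 to 0.82), 1.37 at 8 d (0.77 to 1.67) and 0.33 at 14 d (-0.39 to 1.30). The libraries of 8 d overlapped those of 4 d only between 0.77 and 0.82, but those of 14 d between 0.77 and 1.30.

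**Figure D3:**
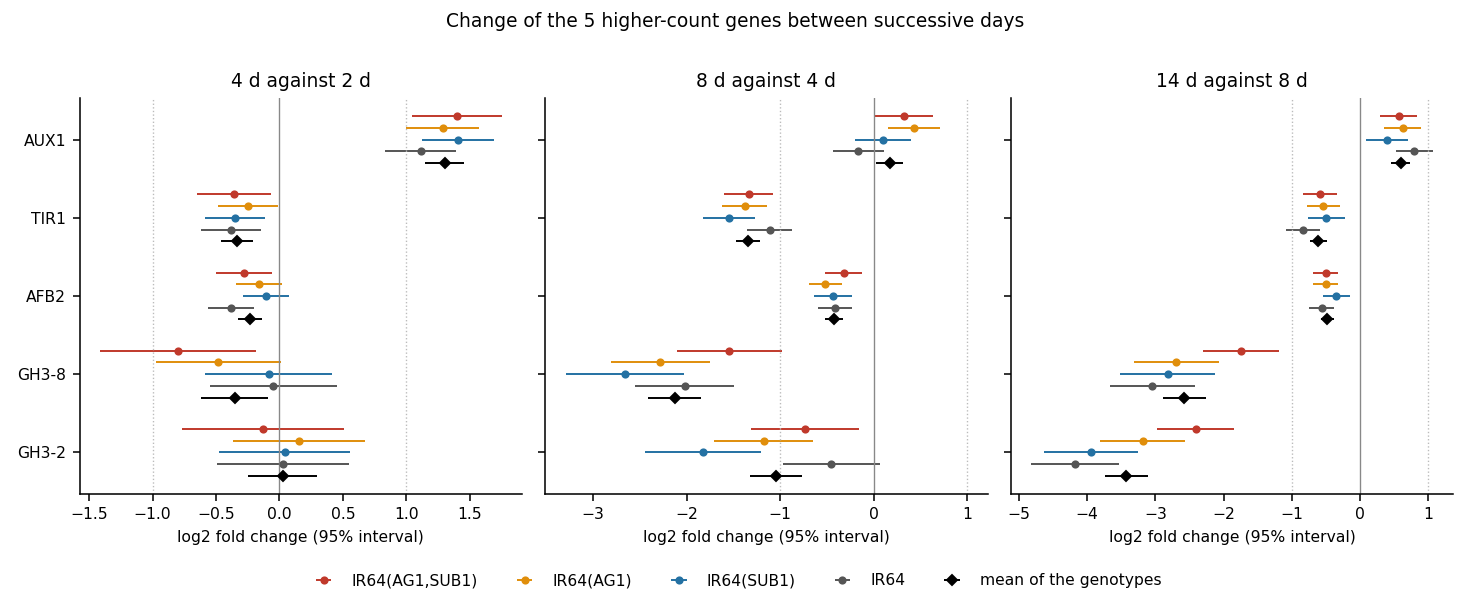
Log2 fold change between successive days of AUX1, TIR1, AFB2, GH3-8 and GH3-2, in each genotype (circles) and as the mean of the genotypes (black diamonds), with 95% intervals from the edgeR quasi-likelihood fit and dotted lines at the call threshold of -1 and 1. The mean of AUX1 was 1.30 at 4 d against 2 d, that of TIR1 was -1.34 at 8 d against 4 d, and those of GH3-8 and GH3-2 were -2.58 and -3.43 at 14 d against 8 d.

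To ask whether AG1 and SUB1 changed these genes underwater, each line was compared with IR64 on the same day. None of the 7 tested genes was called in any of the 3 lines at 2, 4 or 8 d, although calls over all genes were not rare. These came to 4.28, 1.08 and 0.905% of all genes tested in IR64(AG1,SUB1) at 2, 4 and 8 d, 0.913, 0.596 and 2.52% in IR64(AG1), and 1.54, 0.856 and 3.53% in IR64(SUB1). At an unadjusted p under 0.05, there were 7, 4 and 6 of these gene and line pairs at 2, 4 and 8 d with the quasi-likelihood test of edgeR. DESeq2 also called 0 on each of these days. None was called over the mean of the 4 days with either tool, where 5 pairs had an unadjusted p under 0.05. Of all genes, 1.88% were called in IR64(AG1,SUB1), 0.821% in IR64(AG1) and 1.53% in IR64(SUB1). With changes under the threshold, 3 genes in IR64(AG1,SUB1) and 1 in IR64(SUB1) had an FDR under 0.05 (edgeR quasi-likelihood test).
At 2 and 4 d, differences in the conjugation genes were not called. At 2 d, GH3-2 had 96.3 to 120.5 CPM in the lines with SUB1, against 59.9 to 77.5 CPM in the others. At 4 d, it had 89.7 to 125 CPM against 64.6 to 79.8 CPM. GH3-8 had 98.8 to 140.2 CPM at 2 d in the lines with AG1, against 68.1 to 88.5 CPM in the others. At 4 d, the GH3-8 mean was highest in IR64(AG1) and lowest in IR64(AG1,SUB1), so this split was absent. These splits by locus were not themselves tested. Neither gene had an FDR under 0.05 against IR64 at 2 or 4 d (edgeR quasi-likelihood test). At 14 d, the conjugation genes were higher in IR64(AG1,SUB1) than in the other genotypes. GH3-2 had 5.79, 12.3 and 13.0 CPM in IR64(AG1,SUB1), 3.63, 2.05 and 5.31 CPM in IR64(AG1), 1.97, 2.11 and 2.30 CPM in IR64(SUB1), and 1.99, 1.18 and 5.18 CPM in IR64. GH3-8 had 4.20, 9.42 and 6.63 CPM in IR64(AG1,SUB1), 3.43, 2.21 and 2.16 CPM in IR64(AG1), 1.41, 1.74 and 1.93 CPM in IR64(SUB1), and 2.61, 1.53 and 2.50 CPM in IR64. For both genes, the lowest of the 3 libraries of IR64(AG1,SUB1) lay above the highest of the 9 others, by a small margin.
Against IR64, GH3-2 was higher in IR64(AG1,SUB1) by a log2 fold change of 1.88 (standard error 0.32, 95% interval 1.24 to 2.53, FDR 0.00013) and GH3-8 by 1.61 (standard error 0.32, 95% interval 0.96 to 2.26, FDR 0.0013, edgeR quasi-likelihood test). These 2 of 7 genes stand beside 1.76% of all genes tested that were called, and 1.39% that were called higher. The GH3-2 difference ranged over 1.52 to 2.72 with 1 library left out, the highest without IR64 replicate 3, the library with 5.18 CPM. In a fit of only the groups compared, GH3-2 kept its fold change (1.90) but not its call (FDR 0.071). Neither gene was called in IR64(AG1) or IR64(SUB1) against IR64 on this day, where 0.336 and 0.699% of all genes were. The leaf marker CAB had 1227 to 2177 CPM in IR64(AG1,SUB1) at 14 d, against 577 to 1595 CPM in IR64. The summed root markers had 72.7 to 115 CPM in IR64(AG1,SUB1), against 77.5 to 103 CPM in IR64. Of these, LSI1 had 47.1 to 67.2 CPM against 40.5 to 50.8 CPM, and LSI2 had 2.52 to 4.83 CPM against 2.11 to 2.65 CPM. RCc3 leaned the other way, with 22.6 to 42.8 CPM against 34.4 to 50.1 CPM. The ranges of each marker overlapped.

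**Figure D4:**
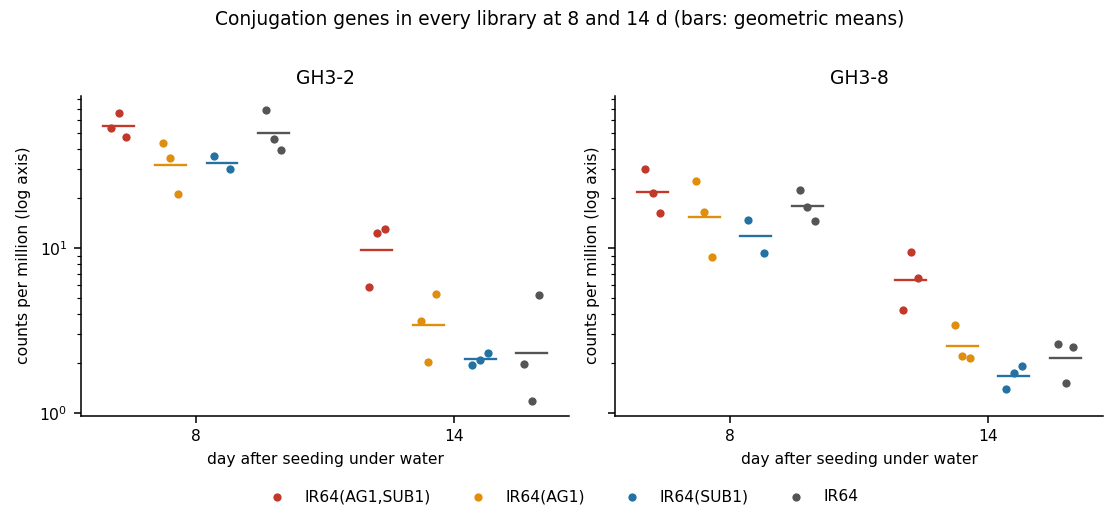
GH3-2 and GH3-8 in every library at 8 and 14 d (CPM on a logarithmic axis), with a column of points per genotype in the order of the legend and bars for the geometric means. At 14 d, the libraries of IR64(AG1,SUB1) sit between 5.79 and 13.0 CPM for GH3-2 and between 4.20 and 9.42 CPM for GH3-8, above all libraries of the other genotypes.

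The line with both loci was also higher than the lines with 1 locus. At 14 d, GH3-2 was higher in IR64(AG1,SUB1) than in IR64(SUB1) by 2.28 (standard error 0.33, FDR 5.3e-06) and than in IR64(AG1) by 1.52 (standard error 0.31, FDR 0.0016, edgeR quasi-likelihood test). GH3-8 was higher by 1.99 (standard error 0.33, FDR 6.3e-05) and by 1.37 (standard error 0.32, FDR 0.0061, edgeR quasi-likelihood test) in the same comparisons. Of all genes tested, 2.27% were called against IR64(SUB1) and 2.06% against IR64(AG1), mostly higher. The GH3-8 difference from IR64(AG1) was not called without IR64(AG1,SUB1) replicate 2 (1.06, FDR 0.12) or IR64(AG1) replicate 2 (1.26, FDR 0.056). IR64(AG1) and IR64(SUB1) had no call between them at 14 d by edgeR or DESeq2 (0.84% of all genes by edgeR), with 1 gene at an unadjusted p under 0.05. At 2, 4 and 8 d, no gene of the set was called between 2 lines with edgeR, with 8, 4 and 5 pairs at an unadjusted p under 0.05. Of all genes, 3.9, 0.913 and 1.31% were called on these days in IR64(AG1,SUB1) against IR64(AG1), 3.45, 0.863 and 1.47% against IR64(SUB1), and 2.42, 1.12 and 0.596% in IR64(AG1) against IR64(SUB1). DESeq2 called 1 at 2 d, YUCCA1 in IR64(AG1,SUB1) against IR64(AG1), which rests on 21 counts in a single library.

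The interaction of the loci was tested as the log2 level in IR64(AG1,SUB1) minus that in IR64(AG1) minus that in IR64(SUB1) plus that in IR64. At 14 d, it was 1.92 for GH3-2 (standard error 0.48, 95% interval 0.94 to 2.89, FDR 0.018) and 1.75 for GH3-8 (standard error 0.49, 95% interval 0.76 to 2.74, FDR 0.043, edgeR quasi-likelihood test), where 1.83% of all genes tested were called. At 8 d, GH3-2 alone was called, with 1.37 (standard error 0.39, 95% interval 0.58 to 2.17, FDR 0.016, edgeR quasi-likelihood test), beside 7.27% of all genes. Of the 7 tested genes, 3 had an FDR under 0.05 for the interaction at 8 d, GH3-2 included. On that day, GH3-2 in IR64(AG1,SUB1) and IR64 overlapped, and the means of both were above those of the lines with 1 locus. GH3-8 was also called at 8 d without IR64(AG1) replicate 1 (1.44, FDR 0.0071) or IR64(AG1,SUB1) replicate 3 (1.21, FDR 0.038). No gene of the set was called at 2 or 4 d by edgeR or DESeq2 (2.45 and 0.642% of all genes by edgeR), with 2 and 0 at an unadjusted p under 0.05 by edgeR. At 2 d, YUCCA1 was called without IR64(AG1,SUB1) replicate 2 (FDR 0.049). These calls rest on few libraries. At 14 d, the GH3-2 interaction was 1.08 (FDR 0.39) without IR64 replicate 3, the library with 5.18 CPM, and it was also not called without IR64(AG1) replicate 2 (FDR 0.079) or IR64(AG1,SUB1) replicate 2 or 3 (FDR 0.062 and 0.074). That of GH3-8 kept its call without IR64(AG1) replicate 1, IR64(AG1,SUB1) replicate 1 or IR64 replicate 2 and lost it without any 1 of the other 9 libraries (FDR 0.061 to 0.19), and in a fit with the replicate number as a block it was not called (FDR 0.051). The GH3-2 interaction at 8 d was lost without IR64(AG1) replicate 3 (FDR 0.064), IR64(AG1,SUB1) replicate 2 (FDR 0.052), IR64 replicate 1 (FDR 0.066) or IR64(SUB1) replicate 3 (FDR 0.10). In fits of only the 4 groups of the day, GH3-8 at 14 d remained the only call of the 3, with FDR of 0.15 for GH3-2 at 14 d and 0.051 at 8 d.
The change of GH3-2 at 14 d against 8 d was smaller in IR64(AG1,SUB1), with -2.41, than in IR64, with -4.18. The difference of these steps was 1.77 (standard error 0.41, 95% interval 0.94 to 2.60, FDR 0.036, edgeR quasi-likelihood test), where 0.428% of all genes tested were called. It was 2.61 without IR64 replicate 3 of 14 d. It was not called in a fit of only these groups (FDR 0.40) or without any of 7 of its 12 libraries. These were IR64(AG1,SUB1) replicates 1 and 3 of 8 d and 2 and 3 of 14 d, and IR64 replicate 1 of 8 d and 1 and 2 of 14 d (FDR 0.073 to 0.20).

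AUX1 differed between genotypes by less than the threshold. Its mean was lowest in IR64(AG1,SUB1) at 2, 4 and 14 d and in IR64 at 8 d. At 4 and 8 d, it was highest in IR64(SUB1), whose libraries were above all others. There, AUX1 had 106 to 126 CPM at 4 d, against at most 101 CPM elsewhere, and 121 to 125 CPM at 8 d, against at most 117 CPM. At 2 d, its log2 fold change in IR64(AG1,SUB1) was -0.71 against IR64 (standard error 0.16, FDR 0.0036) and -0.65 against IR64(SUB1) (FDR 0.0076, edgeR quasi-likelihood test). The first was -1.05 and called without IR64(AG1,SUB1) replicate 3, which leaves 1 library of that group, assumed to vary like the others. Replicate 3 had the fewest genes with a count, 21560 against 22549 to 27539 in the other libraries. At 4 d, AUX1 in IR64(AG1,SUB1) was lower than in IR64(SUB1) by a log2 fold change of -0.66 (FDR 0.017, edgeR quasi-likelihood test). Its libraries in IR64(AG1,SUB1) overlapped those in IR64(AG1) on that day. At 14 d, the 3 libraries of IR64(AG1,SUB1), with 128 to 139.7 CPM, were below the 9 of the other genotypes, which had 143 to 171 CPM. On that day, only GH3-2 and GH3-8 had an unadjusted p under 0.05 in IR64(AG1,SUB1) against each other genotype (edgeR quasi-likelihood test). The AUX1 differences of IR64(AG1,SUB1) at 14 d did not reach this. As the mean of the 4 days, the difference from IR64 was -0.31 (standard error 0.07, 95% interval -0.45 to -0.16, FDR 0.0053, edgeR quasi-likelihood test).
The receptors also differed between genotypes by less than the threshold. On each day, the TIR1 libraries of genotypes next to each other in the order of the means overlapped, but some groups farther apart in that order did not. At 2 d, TIR1 had 91.8 and 93.9 CPM in IR64(AG1,SUB1), against 81.8 to 82.6 CPM in IR64(AG1), a log2 fold change of 0.18 (FDR 0.45, edgeR quasi-likelihood test). At 8 d, the values of IR64(SUB1) given above were below those of IR64, with a log2 fold change of -0.41 (FDR 0.047), and below those of IR64(AG1,SUB1), which was higher by 0.29 (FDR 0.28, edgeR quasi-likelihood test). AFB2 had 106, 104 and 107 CPM in IR64(SUB1) at 2 d, against 149, 143 and 132 CPM in IR64, a log2 fold change of -0.42 (standard error 0.09, FDR 0.0024, edgeR quasi-likelihood test). These groups did not overlap.

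Among the other genes of the pathway, 94 were listed by family and 86 passed the filter. As the mean of the genotypes, 15 were called higher and 2 lower at 4 d against 2 d, 22 higher and 12 lower at 8 d against 4 d, and 9 higher and 10 lower at 14 d against 8 d. Of all genes tested, 9.03% were called higher and 5.05% lower at 4 d against 2 d, 27.2% higher and 10.4% lower at 8 d against 4 d, and 16.2% higher and 10.8% lower at 14 d against 8 d. The medians of their log2 fold changes were 0.22, 0.07 and 0.11, against 0.02, 0.09 and 0.01 over all genes tested. Only 13 of these genes carry a description in the tables of the study, and those named here are given by identifier.
The influx and efflux carriers had calls in both directions. Of 4 other influx carriers, 1 was called higher and 1 lower at 8 d against 4 d, and of 9 tested efflux carriers, 5 were higher and 3 lower, where 37.7% of all genes were called in either direction. OS01G0802700, described as an efflux carrier domain protein, averaged 8.29, 27.8, 6.48 and 3.68 CPM at 2, 4, 8 and 14 d. Its log2 fold change was 2.01 at 4 d against 2 d (FDR 3.0e-10) and -2.35 at 8 d against 4 d (FDR 8.6e-13, edgeR quasi-likelihood test). Its level thus peaked at 4 d, the day by which AUX1 had risen. The 3 other receptor genes had median log2 fold changes of -0.02, -0.41 and -0.61 at the 3 steps.
Of the 8 other GH3 genes tested, 2 were called higher and 3 lower at 8 d against 4 d, and 1 higher and 2 lower at 14 d against 8 d. These stand beside 27.2% of all genes called higher and 10.4% lower at the first of these steps, and 16.2% higher and 10.8% lower at the second. OS01G0221100, a GH3 family gene, fell by 1.95 on the log2 scale at 8 d against 4 d (FDR 1.7e-16) and had 0.64 at 14 d against 8 d (FDR 2.4e-05, edgeR quasi-likelihood test), where GH3-8 and GH3-2 fell. Among biosynthesis genes, OS01G0169800, a tryptophan aminotransferase, averaged 15.7, 15.6, 27.9 and 16.5 CPM on the 4 days, with log2 fold changes of 0.86 at 8 d against 4 d (FDR 1.4e-12) and -0.76 at 14 d against 8 d (FDR 1.3e-11, edgeR quasi-likelihood test).

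**Figure D5:**
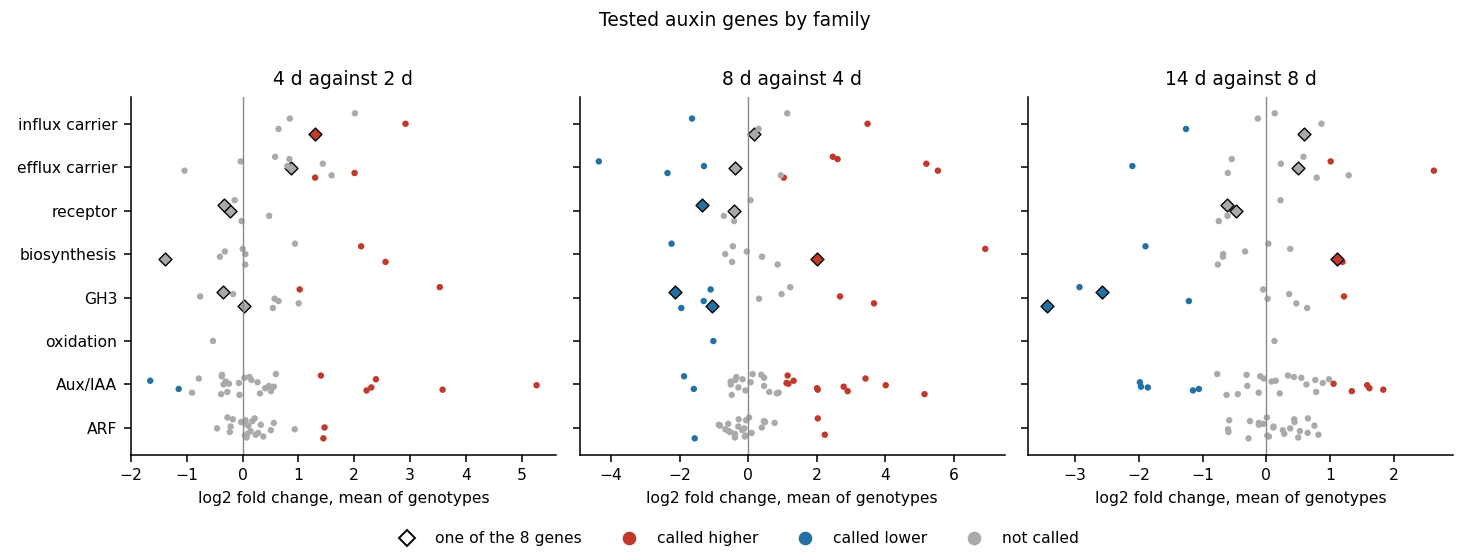
Log2 fold change between successive days as the mean of the genotypes for every tested gene of the auxin pathway, by family, with diamonds for genes of the set of 8 and colours for the calls. At 8 d against 4 d, GH3-8 and GH3-2 were called lower at -2.13 and -1.05, TIR1 was called lower at -1.34, and 11 of 29 tested Aux/IAA genes were called higher, where 27.2% of all genes were.

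Downstream of the receptors, 11 of 29 tested Aux/IAA genes were called higher and 2 lower at 8 d against 4 d, and 2 of 24 ARF genes were higher and 1 lower, against 27.2% of all genes higher and 10.4% lower. OS01G0190300, similar to IAA26, averaged 0.858, 0.654, 22.9 and 16.7 CPM on the 4 days and rose by 5.14 (FDR 4.0e-21, edgeR quasi-likelihood test) at 8 d against 4 d. The ARF genes OS02G0141100 and OS01G0236300 changed by 2.23 (FDR 3.0e-17) and -1.56 (FDR 1.8e-18, edgeR quasi-likelihood test) at this step. In IR64(AG1,SUB1) against IR64 at 14 d, 1 of the 86 genes was called, beside 1.76% of all genes tested. This was the Aux/IAA gene OS02G0805100, which was named after its values were seen. It was higher by 2.04 (FDR 0.00032, edgeR quasi-likelihood test), and it averaged 50.4, 22.9, 8.55 and 5.03 CPM on the 4 days and was called lower at each step.

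The time course of these genes was shared with many others. Over the 16 group means of log2 CPM, 1697 genes had a Pearson correlation above 0.95 with TIR1, 1155 with GH3-8, 610 with AFB2, 379 with GH3-2, 63 with AUX1 and none with YUCCA1 or PIN1b. The groups share their days, so these values describe a time course in common. The gene most like GH3-2 among those with a description was OS06G0142200, an early nodulin (r = 0.99 over 16 groups, 0.98 over 45 libraries). For GH3-8, it was OS05G0244700, an aminotransferase of class IV (r = 0.99 over 16 groups, 0.98 over 45 libraries). The genes closest to TIR1, AFB2 and AUX1 had correlations of 1.00, 0.99 and 0.98 over the groups, and those closest to YUCCA1 and PIN1b had 0.93 and 0.78. The 10 tested genes on each side of each of the 7 tested genes were compared as well, since the lines carry donor segments. Over the mean of the days, none of these 20 neighbours was called in any line for AUX1, TIR1, AFB2, PIN1b and GH3-2, and 1 of 20 was called in IR64(AG1) for YUCCA1 and for GH3-8.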

How the data were processed

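The deposited table held counts per gene for all libraries. According to the methods of the study, the authors trimmed strand-specific paired-end reads, aligned them with TopHat2 2.0.14 and Bowtie2 2.2.5 (versions per the labels) to the Nipponbare genome IRGSP-1.0 supplemented with SUB1A-1, and counted reads on exons in union mode, with no normalization. The table listed 35677 genes, 4043 of them at 0 throughout. The counts were analysed here in R 4.3.3 with edgeR 4.0.16 (limma 3.58.1). filterByExpr kept 26180 genes, libraries were scaled by TMM, and 1 quasi-likelihood model was fitted to the 45 libraries in 16 groups, with Benjamini-Hochberg adjustment within each of 55 contrasts. A gene was called at FDR under 0.05 and a log2 fold change beyond 1 in size. CPM used the TMM-scaled library sizes, and a floor was set at 3 counts. The fit was tested on simulated data.

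The alternatives were DESeq2 1.42.0, upper-quartile scaling, no filter, 5 counts added with the likelihood ratio test (steps of the study), only the groups compared, a replicate block and leaving out each library, with the dispersions of all libraries kept. The genes named were the 8 genes, those of each other pathway family with the highest level or the largest rise or fall between 4 and 8 d, and those most like each of the 8, restricted in the text to genes that the tables of the study describe. The members and lists were chosen with earlier results of these data known. The methods of the study describe the underwater experiment as biological triplicates, and the labels only number the replicates. A planned look at promoters and proteins was not run, since no identifier matched the RefSeq table used here.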

Additional observations from a re-analysis of the deposited data

Results flagged for a closer look

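In the conjugation genes, 4 differences between genotypes passed a test of the difference itself. The change of GH3-2 at 14 d against 8 d differed between IR64(AG1,SUB1) and IR64 by 1.77 on the log2 scale (FDR 0.036, edgeR quasi-likelihood test). The interaction of AG1 and SUB1 was 1.37 for GH3-2 at 8 d (FDR 0.016), and at 14 d it was 1.92 for GH3-2 (FDR 0.018) and 1.75 for GH3-8 (FDR 0.043, edgeR quasi-likelihood test). Each of the 4 lost its call when 1 of several single libraries was left out.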

How the results depend on the processing

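Of 42 calls of a gene in a comparison, 30 were lost in no fit without 1 library, 31 were kept under every other alternative, and none was reversed under those run. As the mean of the genotypes, DESeq2 called 2 genes at 4 d against 2 d (1 as reported), the added one being YUCCA1, and the steps of the study called 2 at 8 d against 4 d (4 as reported). Between 2 lines at 2 d, DESeq2 and upper-quartile scaling called 1 (0 as reported), YUCCA1 both times. In fits of only the groups compared, 1 gene was called against IR64 at 14 d (2 as reported) and 1 interaction (3 as reported). Without 1 library, calls at 4 d against 2 d in single genotypes ranged over 3 to 6 (5 as reported) and the mean of genotypes a highest count of 2 (1 as reported). The counts of 0 against IR64 at 2 d, 8 d and over the mean of days, and between lines at 2 and 8 d, each reached 1. The added call was AUX1 without IR64(AG1,SUB1) replicate 3 of 2 d, PIN1b without IR64 replicate 2 of 8 d (8 d and mean of days), YUCCA1 between lines at 2 d, and GH3-8 without IR64(AG1,SUB1) replicate 3 of 8 d. Differences of a step ranged over 0 to 2 calls (1 as reported) and interactions over 1 to 4 (3 as reported). In groups of 2, the library left was assumed to vary like the other groups.

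The deviations of same-numbered libraries of different genotypes had a median r of 0.11 at 8 d (9 of 15 pairs over 0.1). At 14 d, it was 0.09 (8 of 18 pairs). Different-numbered libraries had a median r of -0.06 at 8 d (1 of 30 pairs over 0.1) and -0.08 at 14 d (5 of 36 pairs). Equal numbers thus deviated together to a small extent on these days, which the main model did not take into account. No pair was over 0.1 at 2 or 4 d. With the replicate block, 49 of 50 values of single genes, called or not, stayed on their side of the threshold. The exception was the GH3-8 interaction at 14 d (1.75, FDR 0.051, edgeR quasi-likelihood test). The 11 calls at 8 d against 4 d in single genotypes stayed 11. Same-numbered libraries of successive days of a genotype had a median r of 0.01 (0 of 31 pairs over 0.1). A block by number removes a shift common to all days, so it does not test one shared within a single day. The median log2 fold change of all genes at 8 d against 4 d was 0.18 with DESeq2, 0.12 with no filter and -0.16 with the steps of the study, and at 14 d against 8 d it was -0.11 with upper-quartile scaling. Depth limits PIN1b, PIN2 and YUCCA1, whose values rest on few counts.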
